A study of Drosophila melanogaster with 6 samples.

Results

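The annotated splice junctions that span introns above 20 kb were examined in eyes of aging male flies. They are all annotated junctions in the deposited table of single genes whose end minus start is above 20000 bases, and 713 of 39618 annotated junctions met this rule, in 362 genes. The 19180 annotated junctions over introns of 50 to 100 bases served as the comparison set. RNA-seq of dissected eyes had been done at day 10 and day 40 after eclosion with 3 libraries at each age, made from ribo-depleted total RNA. All flies, at both ages, carried the same alleles, which are w, ry[506], a UAS-GFP-Msp300KASH transgene at attP2 and an rh1-GAL4 driver. The driver expresses the GFP-KASH fusion in the outer photoreceptors. There was no group without the transgenes. The comparison asks whether use of these junctions, relative to their genes, differed between the ages. The study calls the libraries of each age biological replicates, and the p-values rest on the spread between them.

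Most fly introns are short and are removed as a single unit, whereas long introns lie mainly in genes for neuronal, adhesion and developmental regulators. A long intron takes the polymerase many minutes to transcribe, and some are removed stepwise through recursive splice sites, as is known for Ultrabithorax. Long first introns often lie between alternative promoters, so that distant first exons compete for the same downstream splice site.

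The junctions came from a wide range of intron lengths and had few reads each. The median intron length of the 713 junctions was 31600 bases, against 109 bases over all annotated junctions, and the longest reached 257022 bases. The introns numbered 174 above 50000 bases and 34 above 100000 bases. On the chromosomes, 160 lay on 3R, 154 on 3L, 146 on X, 124 on 2R, 113 on 2L, 13 on Y, 2 on chromosome 4 and 1 on an unmapped scaffold. There were 215 genes with 1 such junction. Of the junctions, 237 are in every annotated transcript of their gene, and 369 are in 1 transcript only.

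Counts on genes ranged from 8946125 to 15029770 at day 10 and from 8476220 to 12686867 at day 40, and the 713 junctions together held 13743 to 28819 counts per library. Day 10 replicate 1 stood apart from the other libraries in its share of junction counts. Its annotated junctions held 21.1% of the gene counts, against 23.7% to 27.4% in the other 5 libraries, and values without it are given beside the results that it moved most. Marker genes of photoreceptors, such as ninaE and trp, were abundant in every library, with summed levels of 72088 to 107187 CPM in gene counts for 7 of 8 listed markers. The fat body marker Fbp1 was at 0.466 to 2.35 CPM. Muscle markers, 3 of 4 matched, summed to 564 CPM in day 10 replicate 3 and to 299 to 340 CPM in the other libraries.

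Up to 50 kb, long introns reached the minimum for a test at least as often as short ones. No count in any library was found for 95 of the 713 junctions, and 413 in 255 genes reached the minimum for a test of usage, which was a mean of 5 normalized counts. The share tested was 57.9% for the long set and 53.9% for the short set. Among introns of 20001 to 50000 bases, 10.4% had no count and 61.8% were tested. Above 50000 bases, 22.4% had no count and 46.0% were tested, and above 100000 bases 6 of 34 were tested. The median mean normalized count was 21.9 for the tested long junctions and 24.3 for the tested short ones.

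The junctions without counts included all 13 on the Y chromosome. These lie in kl-2, kl-3, kl-5, ORY, Ppr-Y, WDY and PRY, genes of the male germline that are known for giant introns. The gene with the most junctions above 20 kb was Myo81F, an unconventional myosin heavy chain gene, with 17, of which 4 had no count and none reached the test minimum. The longest intron of all, 257022 bases, is one of these. The genes kirre, a cell adhesion gene of the immunoglobulin family, and Pzl, a gene for a channel of the Piezo family, had 9 and 7 such junctions and none tested. In contrast, sm, the fly homolog of hnRNP L, had 15 with 9 tested, dnc, the cAMP phosphodiesterase gene, had 10 with 4 tested, and heph, the fly homolog of polypyrimidine tract binding protein, had 10 with 3 tested. All 7 junctions of Snap25 were tested, as were all 6 of DIP-lambda, a gene of the immunoglobulin family of Dpr-interacting proteins.

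On both sides of the limit of 20000 bases, some junctions were counted in every library and others in none. Just inside it were shakB J039, with an intron of 20004 bases and counts of 37, 60 and 30 at day 10 and 20, 26 and 23 at day 40, rsh J032, with 20019 bases, and tei J014, with 20037 bases and no count in any library. Just outside it was SK J033, with 19999 bases and counts of 3, 24 and 16 at day 10 and 8, 10 and 8 at day 40, and CG31612 J009, with 19947 bases, had no count.

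The best-counted long junctions lie in genes for RNA-binding proteins, synaptic proteins and transcription factors, and their usage overlapped between the ages in 9 of 10. Usage is the junction count divided by the gene count of that library, in percent. Junctions are named as in the deposited table, where J marks an annotated junction, N a new one and E an exonic part, which is a stretch of exon between annotated exon boundaries. These 10 held 20.5% of all counts on the 713 junctions. The highest was sm J058 (chromosome 2R, 19601020 to 19628480 in BDGP6), with usage of 8.88%, 4.11% and 4.01% in day 10 replicates 1 to 3 and 5.07%, 4.63% and 4.27% in day 40 replicates 1 to 3. Day 10 replicate 1 lay above the other 5 libraries. The log2 change was -0.19 (SE 0.35), and without that library it was 0.20. In mub, which encodes a KH-domain RNA-binding protein, J027 (chromosome 3L, 21879942 to 21907345) had usage of 4.38%, 3.40% and 4.13% at day 10 and 3.6%, 3.71% and 3.03% at day 40. The ages overlapped, and the log2 change was -0.21 (SE 0.22).

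Cow encodes a secreted proteoglycan that carries Wingless. Its J024 was used at 3.05%, 3.91% and 4.16% at day 10 and 3.90%, 4.0% and 3.62% at day 40, so that the ages overlapped. The repressor gene cic had J031 at 6.06%, 5.42% and 4.91% at day 10 and 6.18%, 5.51% and 5.0% at day 40, nearly the same range at both ages. Mnr J020 was the exception in spread, with 6.65%, 8.09% and 6.85% at day 10 and 12.9%, 5.62% and 4.32% at day 40. Day 40 replicate 1 held 700 counts on this junction, above the 302 to 326 of the other day 40 libraries, and the log2 change went from -0.07 (SE 0.42) to -0.58 without it. The homeobox gene ct, a marker of cone cells, had J015 at 5.83%, 5.98% and 4.58% at day 10 and 5.39%, 4.73% and 4.97% at day 40. GluClalpha, the glutamate-gated chloride channel gene, had J021 at 12.1%, 6.13% and 6.96% at day 10 and 6.26%, 8.44% and 6.59% at day 40, and the highest value was again day 10 replicate 1. Its log2 change was -0.21 (SE 0.32), and 0.12 without that library.

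The gene lovit encodes the vesicular transporter that photoreceptors need to store histamine, their transmitter. Its only annotated transcript spans 4 introns above 20 kb. J009, over 66377 bases, had usage of 9.64%, 16.3% and 15.6% at day 10 and 17.1%, 14.7% and 14.1% at day 40. J011, over 116882 bases, had 5.15%, 6.02% and 6.73% at day 10 and 6.14%, 5.86% and 4.74% at day 40. The third, J013 over 59000 bases, had 2.29%, 4.51% and 5.73% at day 10 and 3.78%, 4.62% and 4.42% at day 40. Values overlapped between the ages in all 3, with log2 changes of 0.18 (SE 0.28), -0.11 (SE 0.24) and 0.06 (SE 0.35). Without day 10 replicate 1, the lowest library for each of them at day 10, these were -0.08, -0.21 and -0.26. The last intron, J014 over 189627 bases, had no count in any library.

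Snap25 encodes a SNARE protein of synaptic vesicle release, and 7 of its junctions span 29893 to 51637 bases each. Its best-counted junction, J018, had usage of 15.3%, 16.8% and 17.02% at day 10 and 15.4%, 16.9% and 13.6% at day 40. J016 had 23.0%, 15.6% and 15.04% at day 10 and 13.5%, 14.2% and 13.8% at day 40, and J014 had 15.6%, 8.79% and 8.82% at day 10 and 6.37%, 6.90% and 6.68% at day 40. In both, all 3 day 40 libraries lay below all 3 day 10 libraries, and day 10 replicate 1 was the highest. The log2 changes in usage were -0.12 (SE 0.22) for J018, -0.41 (SE 0.26) for J016 and -0.74 (SE 0.30) for J014. Without day 10 replicate 1 they were -0.18, -0.17 and -0.44. The fitted change was negative in all 7 junctions, from -0.74 to -0.06. With other annotated-junction counts of the gene as the denominator it was negative in 5 of the 7, and the changes were 0.22 for J018, -0.07 for J016 and -0.44 for J014. These 7 share a gene count and are not independent of each other.

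The longest introns with enough counts to be tested also showed overlapping ages. The gene bru3, of the CELF family of RNA-binding proteins, had J049 over 139347 bases, with counts of 16, 13 and 7 at day 10 and 11, 7 and 14 at day 40. Next was pum J029 over 132737 bases, in the gene for the translational repressor Pumilio, with 27, 100 and 83 at day 10 and 29, 48 and 36 at day 40. CG17684 J028 over 126727 bases had 2, 20 and 4 at day 10 and 6, 5 and 17 at day 40. The transcription factor gene jing had J012 over 110416 bases, with 0, 12 and 12 at day 10 and 10, 5 and 9 at day 40. Relative to their genes, the log2 changes were 0.00 (SE 0.47), -0.48 (SE 0.33), 0.35 (SE 0.57) and 0.42 (SE 0.71). Without day 10 replicate 1 they were 0.64, -0.72, 0.15 and -0.04. Counts this low leave wide errors, and no difference was detectable at this depth.

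No junction over an intron above 20 kb was called as changed in usage between day 10 and day 40. In edgeR's quasi-likelihood test with Benjamini-Hochberg adjustment over all features, 0 of 413 had an adjusted p-value under 0.05, and the lowest was 1. Over all 59968 features tested, 2 were called, which is 0.00334%. DESeq2 also called 0 of the 413, and it called 26 features in all. Without adjustment, 17 of the 413 were lower at day 40 with an edgeR p-value under 0.05 and 4 were higher, or 4.12% and 0.969%. Over all features these shares were 1.67% lower and 1.35% higher. Among all annotated junctions tested they were 2.16% lower and 1.48% higher. Without day 10 replicate 1, 34 of the 413 were lower and 8 higher by the same rule. Together that is 10.2%, beside 5.45% of all features. Without day 10 replicate 3 there were 8 lower and 8 higher (3.92%, beside 2.88% of all features). Without day 40 replicate 2 there were 6 and 4 (2.42%, beside 1.98%). With other annotated-junction counts as the denominator there were 8 and 6 (3.40%, beside 2.67% of annotated junctions). Leaving out day 10 replicate 2, day 40 replicate 1 or day 40 replicate 3 gave 14 and 6, 11 and 4, and 14 and 2. The excess of lower junctions thus depended on the setting. Under DESeq2, 13 of the 413 had an unadjusted p-value under 0.05, which is 3.15%, beside 2.23% of all features. Ages did not overlap in 32 junctions that were lower at day 40 and in 12 that were higher, which is 7.75% and 2.91%, beside 4.99% and 4.66% of all features. The 17 and the 32 were thus above the share over all features and the 4 and the 12 below it, and none of them passed the adjusted threshold. In bulk eyes, fewer cells of a type that uses a junction and less use of it per cell cannot be told apart.

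The 5 junctions with the lowest p-values among those that were lower at day 40 without overlap lie in baz, jvl, bru3, mub and CG14082. In baz, the fly Par-3 gene for a scaffold of the apical junction, J012 (chromosome X, 17161192 to 17188991) had usage of 0.0940%, 0.182% and 0.141% at day 10 and 0.0674%, 0.0174% and 0.0415% at day 40. The counts were 4, 14 and 12 at day 10 and 3, 1 and 3 at day 40, and the log2 change was -1.78 (SE 0.50). In jvl, which encodes a microtubule-binding protein known from bristle shape, J017 (chromosome 3R, 14742592 to 14788056) had 1.83%, 1.30% and 2.26% at day 10 and 0.889%, 0.916% and 1.01% at day 40. The 3 day 40 libraries lay close together and below every day 10 library, and the log2 change was -0.92 (SE 0.29).

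In bru3, J043 (chromosome 3L, 13584272 to 13638516) had 0.474%, 0.512% and 0.608% at day 10 and 0.368%, 0.252% and 0.269% at day 40, with a log2 change of -0.88 (SE 0.29). In mub, J025 (chromosome 3L, 21875326 to 21907345) had 1.04%, 0.835% and 0.862% at day 10 and 0.463%, 0.539% and 0.666% at day 40. Its counts, 131, 201 and 154 at day 10 and 53, 86 and 135 at day 40, are the highest among these 5. The log2 change was -0.72 (SE 0.24), and dropping single libraries gave -0.86 to -0.60. CG14082 J009, over 23922 bases, had 3 to 11 counts per library and a log2 change of -1.52 (SE 0.52). All 5 had an adjusted p-value of 1 in edgeR.

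The mub junction J025 has a neighbor across a short exonic part, and the same reads can count on both. J024 (chromosome 3L, 21845236 to 21875296) ends at the exonic part E002 of 29 bases, and J025 starts there, so both junctions belong to transcripts that hold this short part. J024 was used at 1.40%, 1.11% and 0.912% at day 10 and 0.612%, 0.671% and 0.809% at day 40, again with no overlap, and its log2 change was -0.70 (SE 0.25). Raw counts on E002 itself, not scaled for the differing library depths, were 182, 284 and 186 at day 10 and 77, 117 and 175 at day 40. J027, which reaches the same right-hand exonic part from E003, had a log2 change of -0.21 with overlapping ages. For each 100 normalized counts on E002, J024 had 93.1 and J025 had 73.9, so these junctions are not independent of each other. J024 was named after its values were seen.

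The 5 junctions with the lowest p-values among those that were higher at day 40 without overlap lie in Marf1, wat, jvl, fru and lncRNA:CR44997. Marf1, which encodes an RNA-binding regulator of the female germline, had J021 (chromosome 2L, 22312039 to 22363429) at 1.38%, 2.52% and 0.512% at day 10 and 6.94%, 8.04% and 2.65% at day 40. The junction counts were 7, 15 and 8 at day 10 and 12, 18 and 8 at day 40, while the count of the gene was lower at day 40. The log2 change in usage was 2.21 (SE 0.67). In wat, a fatty acyl-CoA reductase gene known from the trachea, J019 had 1.09%, 0.743% and 1.19% at day 10 and 1.81%, 3.56% and 2.72% at day 40, with 3 to 10 counts per library and a log2 change of 1.48 (SE 0.45).

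In jvl, J020 (chromosome 3R, 14750274 to 14788056) had 0.819%, 1.18% and 0.822% at day 10 and 1.88%, 1.31% and 1.51% at day 40. It shares its right end with J017 and had a log2 change of 0.72 (SE 0.29), opposite in sign. The courtship gene fru had J039, over 79261 bases, at 0%, 0.236% and 0.245% at day 10 and 0.538%, 0.344% and 0.478% at day 40, with 0 to 13 counts and a log2 change of 1.30 (SE 0.60), or 0.89 without day 10 replicate 1. The noncoding gene lncRNA:CR44997 had J006 at 7.41%, 5.38% and 7.37% at day 10 and 8.62%, 19.6% and 13.7% at day 40, on 2 to 11 counts, with a log2 change of 1.18 (SE 0.56). With other annotated-junction counts as the denominator it was 0.39. The adjusted p-value was 1 in edgeR for all of them.

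**Figure D1:**
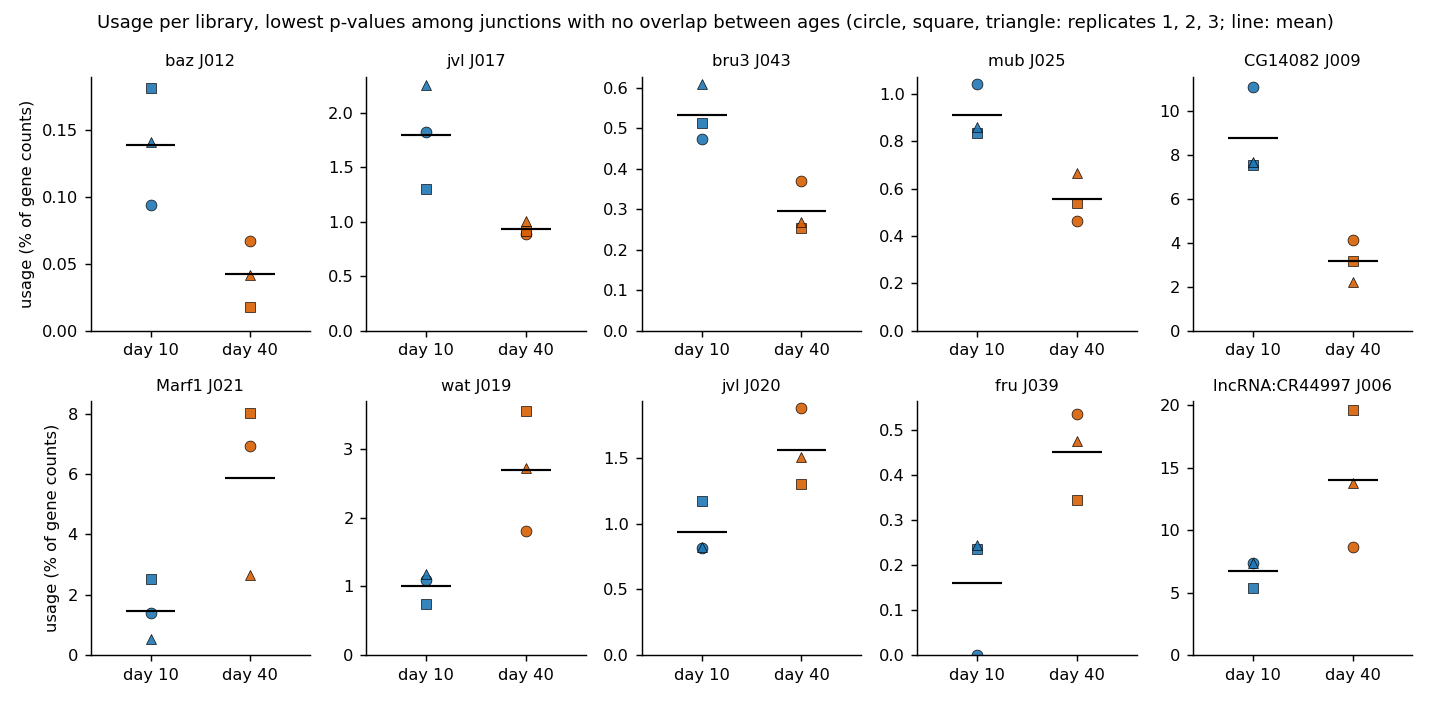
Usage in percent of the gene count (y axis) in each library by age (x axis) for the 5 junctions lower at day 40 (top) and the 5 higher at day 40 (bottom) with the lowest p-values among those without overlap; points are libraries and lines are means. The 3 jvl J017 values at day 40 lie between 0.889% and 1.01%, below the lowest day 10 value of 1.30%, and jvl J020 runs the other way.

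Across all tested long junctions the change was close to 0. The median log2 usage change was -0.03 over the 413, with 221 lower and 192 higher, beside 0.02 over all features, 0.03 over all annotated junctions and 0.06 over junctions of 50 to 100 bases. The quartiles of the 413 were -0.29 and 0.22, and 314 changed by less than 0.5 on the log2 scale. The median SE of a single junction was 0.39, which is an error of 1 junction and not of the median over the 413. Between libraries of the same age, the median log2 usage of the long junctions had an SD of 0.19. The share of junctions with a lower fitted usage was 53.5% in the long set and 44.9% in the short set. Without day 10 replicate 1, 63.0% of the long set was lower. The medians were then -0.12 over the long set, -0.04 over all features and -0.06 over the short set.

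The median was above 0 for introns of up to 1000 bases and at or below 0 for longer ones, without a steady order of the classes. It was 0.04 for introns of up to 49 bases, 0.05 for 50 to 69, 0.06 for 70 to 100, 0.05 for 101 to 300, 0.03 for 301 to 1000, 0.00 for 1001 to 3000, -0.05 for 3001 to 10000, -0.02 for 10001 to 20000, -0.02 for 20001 to 50000 and -0.08 above 50000 bases. The library that stood apart moved all of these. Without day 10 replicate 1, the medians were -0.06 for 50 to 69 bases, -0.10 for 20001 to 50000 bases and -0.14 above 50000 bases, so that the classes of 50 to 1000 bases turned negative as well.

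The median also differed with membership in transcripts. The median was 0.05 for the 158 tested junctions that are in every annotated transcript of their gene, and -0.08 for the 255 that are in some transcripts only. In the second set 150 were lower and 105 higher, and in the first 71 were lower and 87 higher. Junctions in every transcript were also used more, with a median day 10 usage of 3.02% against 0.913%. This split was added after the data were seen.

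**Figure D2:**
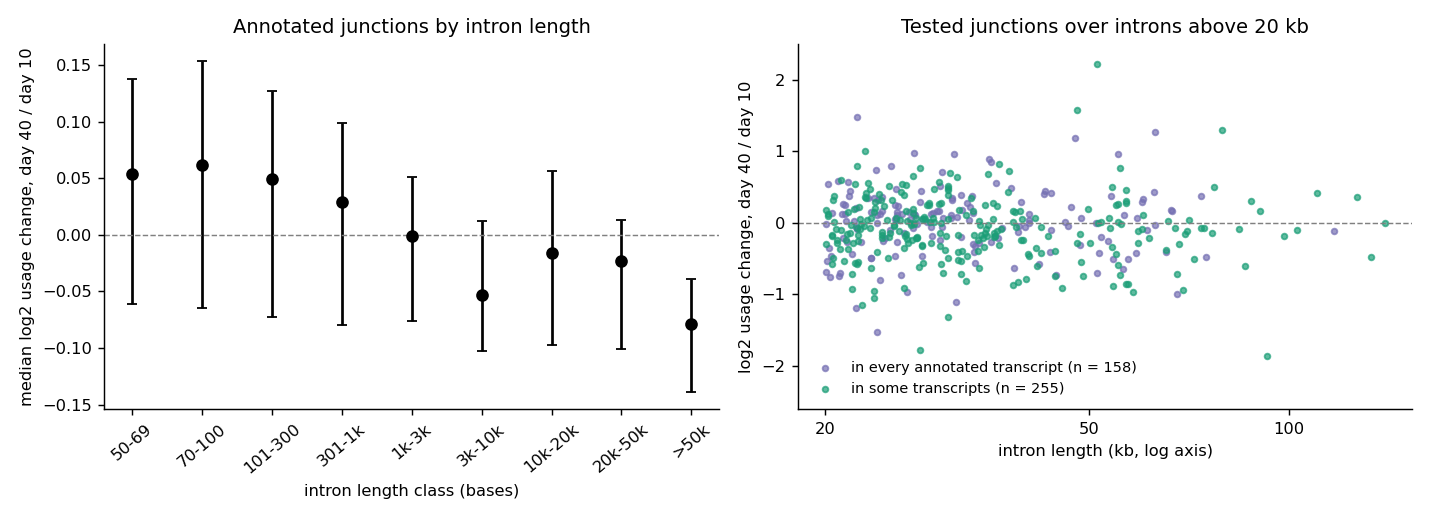
Left, median log2 usage change at day 40 over day 10 (y axis) by intron length class (x axis), with bars from the lowest to the highest median when each library is left out in turn; right, the change of each tested long junction (y axis) against intron length in kb on a log axis. The medians run from 0.06 at 70 to 100 bases to -0.08 above 50000 bases, and the bars of the classes overlap.

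Summed over the tested junctions, long introns made up a small share of the counts of their genes. Pooled usage is the summed count of the junctions as a percentage of the summed count of their genes. For the long set it was 2.25%, 2.62% and 2.65% in day 10 replicates 1 to 3 and 2.38%, 2.28% and 2.27% in day 40 replicates 1 to 3, with means of 2.51% ± 0.223 (SD, n = 3) and 2.31% ± 0.0628 (SD, n = 3). The ages overlapped because day 10 replicate 1 was the lowest of all. For the short set it was 14.6%, 18.1% and 17.9% at day 10 and 19.9%, 17.7% and 17.3% at day 40, which overlap as well.

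Set against the short junctions of the same library, the long junctions were lower at day 40 in all 3 libraries. The log2 ratio of pooled long to pooled short usage was -2.70, -2.79 and -2.76 at day 10 and -3.06, -2.95 and -2.93 at day 40. These do not overlap, and the mean difference was -0.23, beside SDs of 0.0466 at day 10 and 0.0705 at day 40. The short set, however, lies mostly in other genes. Against the short junctions of the same host genes, the log2 ratio was -1.46, -1.23 and -1.26 at day 10 and -1.44, -1.40 and -1.40 at day 40. Here the ages overlapped, again through day 10 replicate 1, and the difference was -0.09. With the median over junctions in place of the pooled value, the difference was -0.05 and the ages overlapped. The ages were thus apart against all short junctions and overlapped against those of the host genes and with the median over junctions. Without day 10 replicate 1, the ages were also apart within the host genes, at -1.26 and -1.23 against -1.44 to -1.40. With 3 libraries against 3 an exact permutation test cannot go below 0.1, and none is given for these pooled values.

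**Figure D3:**
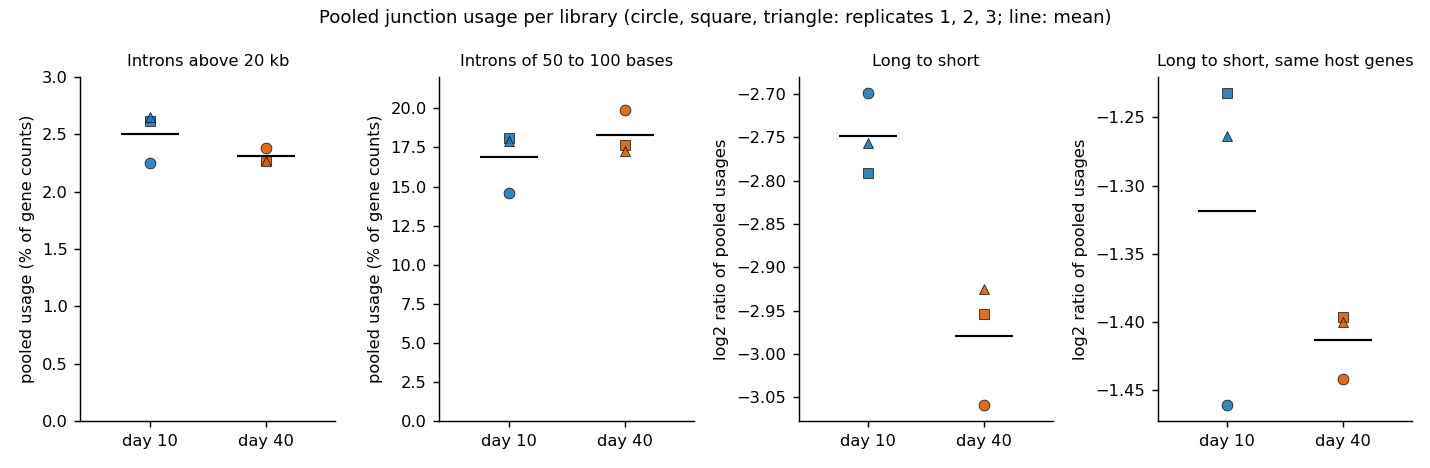
Pooled usage in percent of gene counts for introns above 20 kb and for introns of 50 to 100 bases, and the log2 ratio of the pooled usages against all short junctions and against those of the same host genes (y axes), for each library by age (x axes). Points are libraries and lines are means. The log2 ratio against all short junctions separates the ages, from -2.79 to -2.70 at day 10 and from -3.06 to -2.93 at day 40, and the ratio within host genes does not.

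Long and short introns that every transcript must splice were compared within single genes, for junctions counted well enough to be tested. There were 106 genes with at least 1 long junction and 1 junction of up to 1000 bases, all in every annotated transcript and all averaging 5 or more normalized counts, in total 135 long and 403 short junctions. The median over genes of the log2 ratio of mean long to mean short counts was -0.17, -0.10 and 0.00 in day 10 replicates 1 to 3 and -0.12, -0.05 and 0.02 in day 40 replicates 1 to 3. The ages overlapped. In 54 genes the ratio was within 2-fold, in 23 the long junctions had over 2 times the counts and in 29 under 0.5 times. For introns of 1001 to 20000 bases, the same median was -0.19, -0.16 and -0.17 at day 10 and -0.17, -0.23 and -0.23 at day 40. The ratio was lower at day 40 without overlap in 5 of the 106 genes and higher in 4. Among 866 genes with introns of 1001 to 20000 bases, 6.35% were lower and 3.12% higher by the same rule.

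The 5 lower genes were mbl, Eip63E, dpr8, Hs6st and CG3726, and the 4 higher were sNPF, fipi, CG33158 and wat. Of these, Eip63E, a cyclin-dependent kinase gene, had log2 ratios of 3.51, 2.5 and 2.0 at day 10 and 1.79, 1.95 and 1.52 at day 40. The neuropeptide gene sNPF had -2.35, -1.25 and -1.26 at day 10 and -0.94, -1.21 and -1.22 at day 40. In both genes day 10 replicate 1 lay farthest from the other libraries. The difference in mean log2 ratio between the ages was -0.92 in Eip63E and -0.50 without it, and 0.50 in sNPF and 0.13 without it.

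Muscleblind, the splicing regulator encoded by mbl, is also known in flies for an abundant circular RNA. A pair of long junctions flanks its exonic part E005 of 654 bases, with counts of 10569, 13660 and 8891 at day 10 and 17216, 21101 and 25461 at day 40. J025 (chromosome 2R, 17276064 to 17351093), on the right of E005 and in all 13 annotated transcripts, was counted 96, 191 and 191 times at day 10 and 125, 174 and 203 times at day 40. For each 100 counts on E005, J025 had 0.908, 1.40 and 2.15 at day 10 and 0.726, 0.825 and 0.797 at day 40. All 3 day 40 libraries lay below the day 10 libraries. Raw counts on E005 were higher in all 3 day 40 libraries, while raw counts on J025 overlapped between the ages. These raw counts are not scaled for library depth, which differed between the libraries. They cannot show how much the junction or the part moved the ratio. On the left, J022 (chromosome 2R, 17220104 to 17275409), in 1 transcript, had 0.369, 0.410 and 0.506 by the same measure at day 10 and 0.168, 0.227 and 0.267 at day 40, also without overlap. Set against the part on its own left, E002 of 49 bases, J022 had 76.5, 62.2 and 58.4 per 100 counts in the day 10 libraries and 60.4, 73.8 and 74.7 in those of day 40, which overlap. Relative to the whole gene, the log2 changes in usage were -0.48 (SE 0.28) for J025, whose usage overlapped between ages, and -0.59 (SE 0.25) for J022. Over all tested long junctions and their flanking exonic parts, the median was 25.3 junction counts per 100 counts of the part. The other sources of counts on E005 were not tested.

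Many long junctions share a splice site with another junction, and the share that each takes there is computed without the count of the gene. A splice site shared with another annotated junction was found for 437 of the 713 junctions, at 379 sites. The site with the highest counts is the right end at 21907345 in mub, where J025, J027 and J028 join. J027 took 79.9%, 78.8% and 80.9% of this site in the day 10 libraries and 86.6%, 84.7% and 79.7% in those of day 40, and J025 took 19.0%, 19.4% and 16.9% at day 10 and 11.1%, 12.3% and 17.5% at day 40. Day 40 replicate 3 kept the day 10 level, so the ages overlapped. At the left end of J027 in mub, J027 took 97.3%, 96.9% and 95.8% at day 10 and 93.4%, 95.3% and 94.9% at day 40, a small difference without overlap.

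At the shared right end in sm, J058 took 98.2% to 99.4% of the counts in every library. In Mnr, J020 took 97.1% to 100% at its right end, and at the other well-counted right end of Mnr the long junctions J021 and J023 took 0% to 4.8% and 0% to 0.6%. These sites were thus dominated by 1 junction at both ages.

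Among sites that averaged 20 or more normalized counts, 187 pairs of a long junction and a site had a mean share between 10% and 90%, from 157 junctions. The share was lower at day 40 without overlap in 14 and higher in 10, which is 7.49% and 5.35%. Over 4257 such pairs from annotated junctions of any length, 5.87% were lower and 6.30% higher. Junctions at a site divide its counts, so the same shift can enter as both a lower and a higher pair. This was so for J017 and J020 in jvl and for J012 and J013 in dpr8. A junction can also enter at both of its ends, as did dpr8 J012 and bru3 J043. The pairs are thus not independent of each other. The following junctions were named after their values were seen. No test was made on them.

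The largest shifts without overlap were at sites with few counts. In msi, the gene for the RNA-binding protein Musashi, J018 took 100%, 26.5% and 10% of its right end at day 10 and 0%, 4.55% and 0% at day 40, with J020 taking the rest, on 2 to 50 counts per library. Marf1 J021 took 46.7%, 45.5% and 13.1% of its right end at day 10 and 70.6%, 78.3% and 66.7% at day 40, on 12 to 61 counts. In jvl, J017 and J020 start at different sites and end together. J017 took 69.05%, 52.5% and 73.3% of the counts at the common end at day 10 and 32.1%, 41.2% and 40.0% at day 40, and J020 took 31.0%, 47.5% and 26.7% at day 10 and 67.9%, 58.8% and 60.0% at day 40. The site had 42 to 90 counts per library. In dpr8, a gene of the Dpr family of synaptic recognition proteins, J012 and J013 exchanged in the same manner. J012 took 38.5%, 56.2% and 62.7% at the common right end at day 10 and 34.5%, 33.3% and 26.7% at day 40, and J013 took the rest. At its left end, J012 took 71.4%, 76.3% and 69.6% at day 10 and 43.5%, 46.3% and 37.2% at day 40, on 21 to 59 counts.

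In bru3, J043 took 75%, 49.2% and 52.5% at its left end at day 10 and 41.7%, 41.7% and 36.8% at day 40, on 16 to 65 counts. The giant extracellular matrix gene dpy had J095 with 72.6%, 76.6% and 69.1% of its left end at day 10 and 60.3%, 64.7% and 63.8% at day 40, on 178 to 252 counts. In cpo, which encodes a neuronal RNA-binding protein, J027 took 19.1%, 23.9% and 19.8% at day 10 and 13.6%, 14.96% and 14.2% at day 40, on 199 to 445 counts. Jupiter, a microtubule-associated protein gene, had J022 with 70.7%, 50.7% and 55.8% at day 10 and 50.3%, 37.7% and 33.9% at day 40. In rdgA, the diacylglycerol kinase gene of phototransduction, J036 over 98126 bases took 73.2%, 66.4% and 70.6% of its right end at day 10 and 80.6%, 79.4% and 74.6% at day 40. Shaker, the potassium channel gene Sh, had J059 with 32.5%, 44.0% and 39.6% at day 10 and 76.5%, 56.1% and 46.7% at day 40. A share can differ in direction from usage relative to the whole gene. The log2 usage change was -0.18 (SE 0.29) for rdgA J036 and 0.08 (SE 0.22) for dpy J095, both with overlapping ages. For jvl J017 and J020, bru3 J043 and Marf1 J021, usage and share moved in the same direction.

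**Figure D4:**
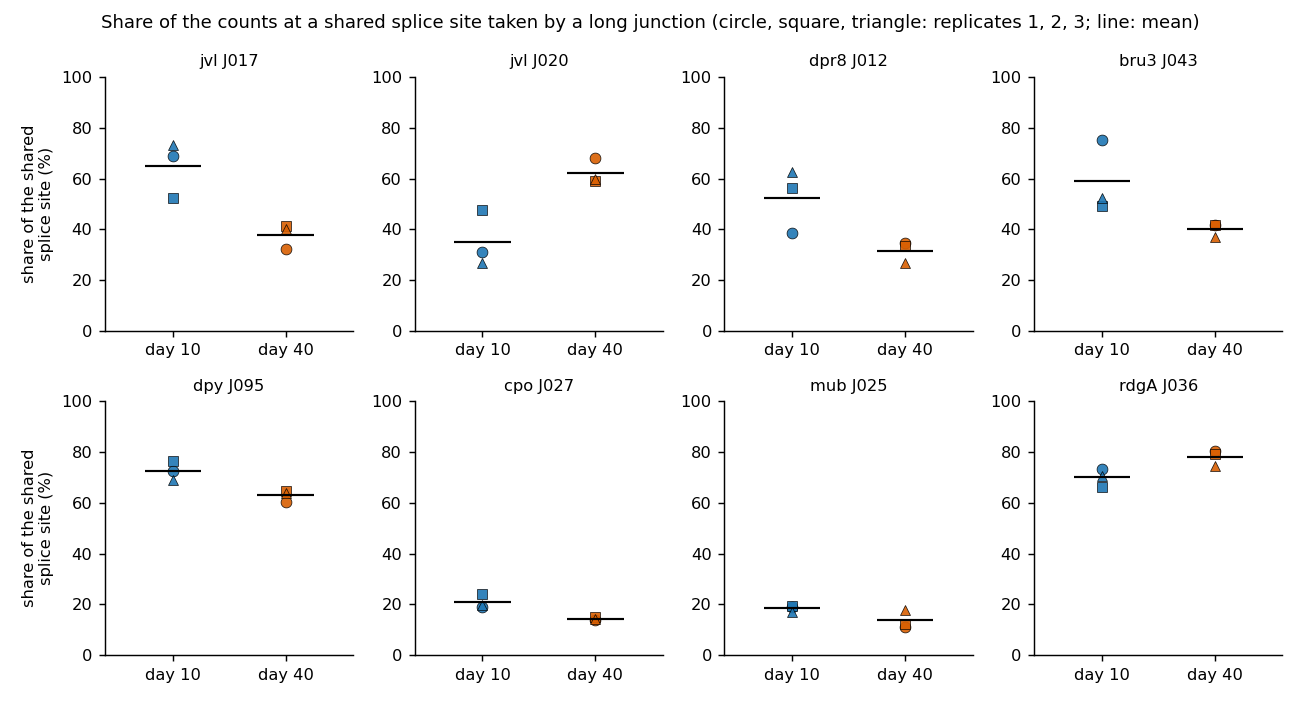
Share of the counts at a shared splice site taken by a long junction, in percent (y axis), in each library by age (x axis); points are libraries and lines are means. The ages are apart in 7 of the 8 panels, and in mub J025 the day 40 replicate 3 value of 17.5% lies within the day 10 range of 16.9% to 19.4%.

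The functional lists of host genes held 0 called junctions each, beside 0.00334% of all features, and the medians of those given here ran from -0.16 to 0.09, beside -0.03 over all tested long junctions. RNA-binding and splicing regulators had 62 long junctions in 12 genes, with 38 tested, 16 higher and 22 lower and a median log2 change of -0.13. Besides sm and mbl, the best-counted members on this list were shep J046 at 1.64% ± 0.110 at day 10 and 1.17% ± 0.443 at day 40 (SD, n = 3) and fne J021 at 3.22% ± 0.414 and 2.65% ± 0.372 (SD, n = 3). The gene mub was not on the list, so its well-counted junctions are not in these numbers. Cell recognition and adhesion genes had 69 in 41 genes, with 42 tested, 22 higher and 20 lower and a median of 0.09. In this list Fas2 J030, in the gene for the adhesion protein Fasciclin 2, was used at 5.54% ± 0.0951 at day 10 and 4.52% ± 0.233 at day 40 (SD, n = 3) without overlap, with a log2 change of -0.31 (SE 0.21).

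Transcription factors had 55 junctions in 25 genes, with 27 tested, 15 higher and 12 lower and a median of 0.04. Kinase, phosphatase, GTPase and cyclic nucleotide signaling genes had 30 in 13 genes, with 18 tested, 5 higher and 13 lower and a median of -0.16. Cytoskeleton, scaffold and trafficking genes had 35 in 8 genes, with 11 tested, 4 higher and 7 lower. Ion channels and receptors had 23 in 16 genes, with 14 tested, 6 higher and 8 lower, among them Ca-alpha1T J060 and Shab J027 with changes of 0.06 and 0.12. Phototransduction genes with long introns were Gprk1, the kinase that phosphorylates rhodopsin, and rdgA, with 5 of 6 junctions tested, all 5 with a fitted change below 0 and a median of -0.07. In Gprk1, J026 was used at 11.5% ± 2.59 at day 10 and 10.9% ± 0.918 at day 40 (SD, n = 3).

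Expression of the host genes themselves changed about as often as that of other genes. Of 352 host genes tested in edgeR's quasi-likelihood test on gene counts, 6 were higher and 11 lower at day 40 with an adjusted p-value under 0.1, or 1.70% and 3.12%. Over all 9255 genes tested these shares were 2.14% higher and 1.98% lower. The median log2 change was 0.03 over host genes and -0.01 over all genes. The markers of 2 other cell types moved with age in the same libraries. Hemocyte markers, for which Hml and NimC1 were matched of 3 listed, summed to 269, 263 and 573 CPM at day 10 and 144, 137 and 162 at day 40. Pigment and cone cell markers, 4 of 5 matched, summed to 895, 838 and 723 at day 10 and 535, 576 and 600 at day 40. This sum includes ct, itself a host gene that was not called (adjusted p = 0.457 in edgeR). It also includes w, of which all these flies carry an allele. Their part in the host gene results was not tested.

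The host gene with the lowest p-value was bnl, which encodes an FGF ligand of tracheal branching, with normalized counts of 574, 387 and 757 at day 10 and 2017, 2406 and 1834 at day 40. It rose by 1.85 on the log2 scale (SE 0.23, adjusted p = 0.00602 in edgeR). CG32369 rose by 0.91 (SE 0.13), from 670, 858 and 864 to 1465, 1622 and 1444. The synaptic recognition gene dpr11 rose by 0.86 (SE 0.14), from 772, 1064 and 756 to 1453, 1623 and 1643. The others that rose were raw, which restrains JNK signaling in the embryo, CG33158 and mbl. For mbl the normalized gene counts were 22943, 19018 and 13275 at day 10 and 31965, 33395 and 30464 at day 40, with a log2 change of 0.80 (SE 0.19). The exonic part E005 of mbl averaged 16531 normalized counts over all libraries. Its raw counts were higher in every day 40 library than in any day 10 library. This part thus carried much of the gene count, and the rest of the gene was not tested separately.

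Among the 11 that fell, CG32816 fell by 1.26 on the log2 scale (SE 0.21), from 366, 249 and 214 to 120, 122 and 102. Marf1 fell by 1.65 (SE 0.31), from 670, 457 and 1167 to 231, 251 and 255. The planar polarity gene mwh fell by 0.84 (SE 0.17), from 529, 446 and 340 to 239, 272 and 221. CG10936 and pnt, an ETS transcription factor gene, fell by 1.07 (SE 0.23) and 0.65 (SE 0.15). The others were FBgn0029082, NetA, sano, CG7720, wat and pigs. In every gene named here with its libraries, the ages did not overlap. The calls depended on the libraries used, since 3 of the 17, bnl, CG32369 and CG32816, stayed under the threshold with every library left out in turn. Without day 40 replicate 1, 2 or 3, the count called higher was 3, 2 and 4, and the count called lower was 1 each time.

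**Figure D5:**
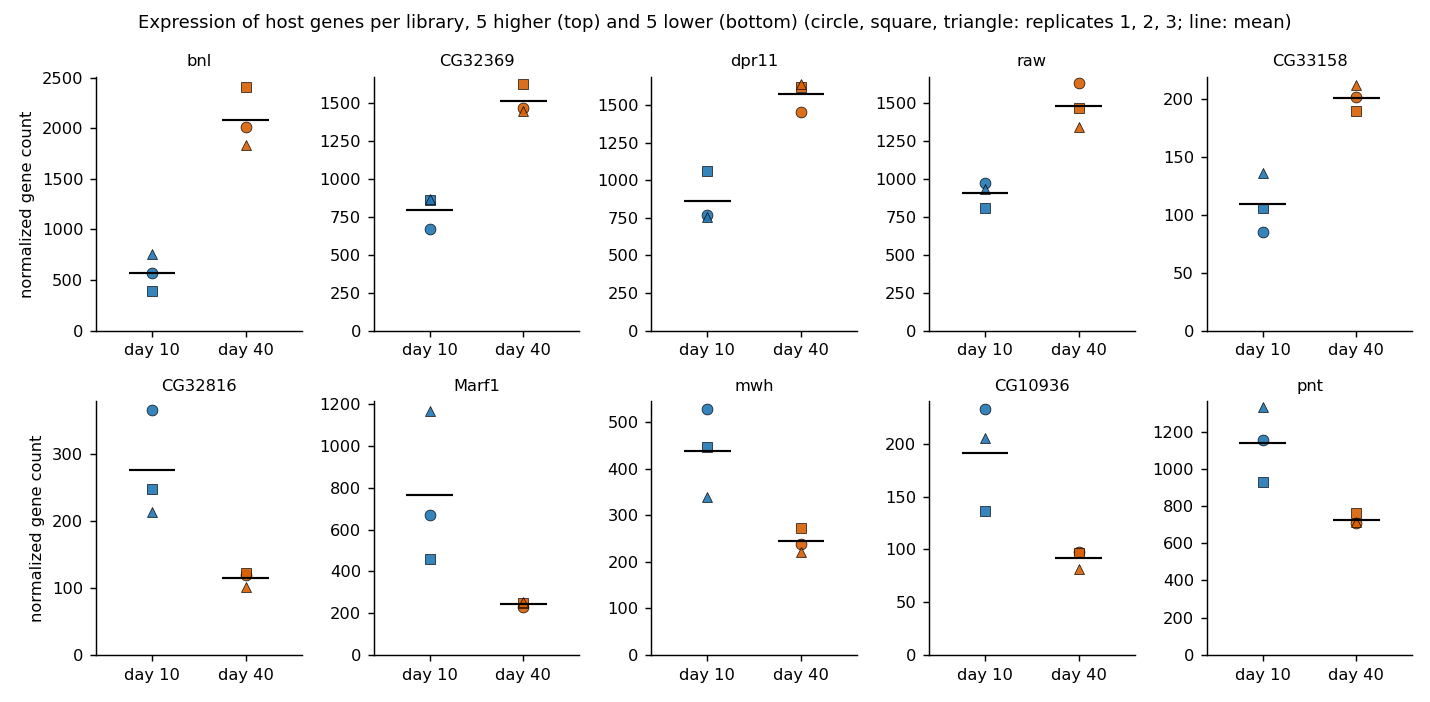
Normalized gene counts (y axis) in each library by age (x axis) for the 5 called host genes with the lowest p-values that were higher (top) and lower (bottom) at day 40; points are libraries and lines are means. The ages are apart in all 10 panels, with bnl between 387 and 757 at day 10 and between 1834 and 2406 at day 40.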

How the data were processed

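The authors deposited raw counts of genes, exonic parts and junctions, annotated or new, for 6 libraries, laid out for JunctionSeq, and a table of positions with start coordinates that begin at 0, to which 1 was added. The submitters' processing notes name Trimmomatic, TopHat and BDGP6, with no versions. The signal, log2 and p-value columns of the deposited table hold the authors' own fitted levels and comparison and were not used. The members and gene lists were chosen with earlier results of these data known.

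Each junction count was tested against the other counts of its gene in edgeR 4.0.16 under R 4.3.3 (quasi-likelihood, terms for library, row and row by age, Benjamini-Hochberg over all features, threshold 0.05), for features of single genes averaging 5 or more normalized counts. In 2 values the rest of the gene was below 0 and was set to 0. Groups of overlapping genes are not in the deposited table of positions and were not analysed here, and strand was not used, so an overlapping gene may share counts. Host gene expression was tested with edgeR on TMM-scaled counts with a threshold of 0.1, and DESeq2 1.42.0 was the alternative for both. A pseudocount of 0.5 was added in ratios of mean counts.

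Alternatives were other tests, count minimums of 1 and 10, other length limits, denominators and comparison sets, a replicate block and leaving out each library. Named junctions are the 10 with the highest mean counts, the 5 longest tested, the 5 rising and 5 falling with the lowest p-values among those without overlap, the genes with most junctions, the 5 best-counted shared sites, those near the limit, and the best-counted members of each list. Host genes named are the 5 rising and 5 falling with the lowest p-values among those called. Symbols were not found for 12 of the 713 junctions. Of the genes on the lists, 436 of 623 were matched. No sequence is printed, since no genome was used here.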

Additional observations from a re-analysis of the deposited data

How the results depend on the processing

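The count of called long junctions was 0 under every setting run, including DESeq2, the replicate block, the count minimums and each library left out. The median usage change of the long junctions was -0.029 and -0.023 with the replicate block. It reversed to 0.047 for junctions in every annotated transcript, a setting chosen after seeing the data. Leaving out each library in turn gave -0.116 (without day 10 replicate 1) to 0.00699 (without day 10 replicate 2). Between libraries of the same age, the median log2 usage had an SD of 0.19. The log2 difference in pooled long usage, -0.112, reversed to 0.056 with the median over junctions, was -0.0052 for introns above 50000 bases, and lay between -0.188 and -0.0696 with a library left out. The difference in the long to short ratio, -0.231, was -0.048 with the median over junctions, -0.102 with annotated-junction counts as denominator, -0.124 for introns above 50000 bases and -0.094 within the host genes, and between -0.258 and -0.191 with a library left out. Host genes called higher numbered 6, and 2 to 7 with a library left out. Those called lower numbered 11, 3 at an adjusted p-value under 0.05 and 1 to 8 with a library left out. Each of the 3 day 40 libraries, when left out, brought the count called lower to 1. The cause was not tested.

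Of the named junctions, baz J012 fell under the count minimum without day 10 replicate 2 or 3 and gave no value there. Same-numbered libraries had deviations correlated at 0.152, 0.0215 and 0.0577, and the other pairs across ages ran from -0.144 to 0.121. So few pairs cannot decide whether same-numbered libraries share a batch, and the labels give only a replicate number. With the replicate block, 19 in place of 21 long junctions had an unadjusted edgeR p-value under 0.05, beside 2.57% of all features. Without day 10 replicate 1 there were 42, or 10.2% of the long junctions, beside 5.45% of all features. Of the 42, 34 were lower and 8 higher at day 40. Without day 10 replicate 3 there were 16, with 8 lower and 8 higher, or 3.92% beside 2.88% of all features. A fit with groups of overlapping genes was not run, since the positions used here cover single genes. Above 50000 bases, 46.0% of the junctions reached the minimum for a test, and usage of the others was not tested.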

Other observations

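New junctions, which are not in the annotation, also spanned introns above 20 kb in 24 of 496 cases, of which 17 lie in genes that have an annotated long junction. Mnt N035, over 20913 bases in the gene for the Mnt repressor of the Myc network, was counted 7, 11 and 9 times at day 10 and 19, 23 and 28 times at day 40. The ages did not overlap, and the log2 usage change was 1.77 (SE 0.28), with an adjusted p-value of 0.906 in edgeR and 0.0703 in DESeq2. In kek5, N021 over 35481 bases was counted 0, 8 and 5 times at day 10 and 13, 12 and 9 times at day 40. The best-counted was ps N047 over 21345 bases, in the gene for the splicing regulator Pasilla, with 73, 205 and 126 at day 10 and 99, 74 and 63 at day 40, where the ages overlapped. Snap25 N019 spanned 92613 bases with 5 to 20 counts per library. Of the 24, all were tested, 12 had a fitted change above 0 and 2 had an unadjusted edgeR p-value under 0.05.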
